A study of Mus musculus with 9 samples.

Results

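Ilk, Lims1, Lims2, Parva, Parvb, Parvg, Fermt1 and Fermt2 encode integrin-linked kinase (ILK), both PINCH adaptors, the 3 parvins and 2 kindlins, proteins of the inner face of integrin adhesions. Open chromatin at these 8 genes was read by ATAC-seq, in which a transposase cuts and tags accessible DNA, so that the reads falling in a peak measure how open that stretch is. A peak was counted with one of these genes when its centre lay inside the gene, and otherwise when the nearest end of any protein-coding gene, within 50 kb, was theirs. That rule rests on position alone and gave 62 of the 75936 peaks. Parva held 17 of them, Lims1 13, Parvb and Fermt2 9 each, Lims2 6, Fermt1 5, Parvg 2 and Ilk 1. The gene a peak is counted with is a neighbour, not a tested target.

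The libraries came from D2A1-d cells, grown in serum and labelled as a murine breast carcinoma, that carried shMed1 #4 (n = 3), shMed1 #2 (n = 3) or a non-targeting control hairpin, NTC (n = 3). Labels give the genotype as Med1 Knockdown for both hairpin groups and as WT for NTC, and the treatment as Untreated for all 9. MED1 is a subunit of Mediator, the coactivator that joins enhancer-bound factors to RNA polymerase II, and the groups ask how open chromatin differs once Med1 is targeted. The labels call the libraries biological replicates and do not say whether they are separate cultures or whether the transduced cells were pools or clones, so p-values measure the spread between these samples, which may be technical.

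The deposited values are read counts divided by one size factor per library, called normalized counts here. Reads in peaks numbered 34.8 to 53.7 M per library, with a median of 162 to 252 reads per peak. Totals of the normalized counts were 43.05 to 43.58 M with shMed1 #4, 43.45 to 44.16 M with shMed1 #2 and 41.24 to 41.52 M in NTC, so the totals moved with the groups. The part of the totals in the results was examined by scaling all libraries to equal totals, which moved the median log2 change of all peaks to -0.08 with shMed1 #4 and -0.10 with shMed1 #2, against -0.01 and -0.02 on the deposited scale. At the targeted gene, the Med1 gene-end peak held 1971 ± 73.1 normalized counts with shMed1 #4, 2023 ± 143 with shMed1 #2 and 2114 ± 41.3 in NTC (SD, n = 3 each). Hairpins act on transcripts, so this peak does not check the depletion. Peaks lay at the ends of 3 of 4 mesenchymal marker genes (Vim, Fn1 and Twist1) and of 2 of 6 mammary epithelial ones (Krt18 and Krt14), with none at Epcam, Cdh1, Krt8 or Krt5. Among markers of other cells, 2 of 5 for blood, 1 of 3 for endothelium, 1 of 3 for fat and 2 of 3 for neural cells had one. The strongest such peak of each gene held, in NTC, 4576 normalized counts at Vim, 3358 at Fn1 and 1845 at Twist1. It held 209 at Krt18 and 126 at Krt14, and 62.6 to 797 at the markers of other cells, with the most at Spi1, a blood marker.

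ILK has the fold of a kinase but acts mainly as a scaffold. One face of it binds a PINCH protein, an adaptor made of LIM domains (LIMS1 or LIMS2), and the other binds a parvin, which in turn holds filamentous actin, and the resulting ILK-PINCH-parvin complex ties integrin tails to the cytoskeleton. Kindlins bind the tails of beta integrins and help talin switch integrins on, and kindlin-2 (FERMT2) also binds ILK. Parvin alpha, PINCH1 and kindlin-2 are made in most adherent cells, kindlin-1 (FERMT1) mostly in epithelia and parvin gamma mostly in blood cells. In carcinoma cells these proteins carry survival and spreading signals from the matrix.

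The start regions of 5 of the genes are shown, since they separate genes whose start lies in a peak from genes whose peaks all lie elsewhere. Each window runs from 250 bases before to 50 bases after a RefSeq start (GRCm38.p6), 5′ to 3′ on the strand of the gene. Capitals mark matches, on either strand, to any of 6 motifs: the GC box GGGCGG, the CCAAT box, the ETS core CCGGAAG, the AP-1 site TGANTCA, the TEAD site GGAATG and TATAAA.
Ilk start (chr7:105736340-105736639, plus strand): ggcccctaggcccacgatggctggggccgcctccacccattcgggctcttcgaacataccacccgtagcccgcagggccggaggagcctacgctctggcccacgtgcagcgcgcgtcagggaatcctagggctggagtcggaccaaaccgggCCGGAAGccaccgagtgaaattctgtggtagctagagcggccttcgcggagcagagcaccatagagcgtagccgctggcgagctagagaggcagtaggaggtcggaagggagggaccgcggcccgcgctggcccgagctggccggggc
Lims1 start (chr10:58323297-58323596, plus strand): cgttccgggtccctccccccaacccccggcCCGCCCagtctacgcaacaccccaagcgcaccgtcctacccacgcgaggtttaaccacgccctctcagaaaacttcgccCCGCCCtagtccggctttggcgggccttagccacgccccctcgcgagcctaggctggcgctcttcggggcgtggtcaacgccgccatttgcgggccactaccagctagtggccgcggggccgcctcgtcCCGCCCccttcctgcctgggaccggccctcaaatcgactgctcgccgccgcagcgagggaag
Parvb start (chr15:84231793-84232092, plus strand): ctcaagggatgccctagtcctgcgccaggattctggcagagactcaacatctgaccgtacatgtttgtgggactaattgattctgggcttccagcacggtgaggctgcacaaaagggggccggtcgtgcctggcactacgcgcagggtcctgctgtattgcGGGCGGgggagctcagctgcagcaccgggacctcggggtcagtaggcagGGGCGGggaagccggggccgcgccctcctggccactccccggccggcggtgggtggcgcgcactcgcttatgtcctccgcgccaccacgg
Fermt2 start (chr14:45530016-45530315, minus strand): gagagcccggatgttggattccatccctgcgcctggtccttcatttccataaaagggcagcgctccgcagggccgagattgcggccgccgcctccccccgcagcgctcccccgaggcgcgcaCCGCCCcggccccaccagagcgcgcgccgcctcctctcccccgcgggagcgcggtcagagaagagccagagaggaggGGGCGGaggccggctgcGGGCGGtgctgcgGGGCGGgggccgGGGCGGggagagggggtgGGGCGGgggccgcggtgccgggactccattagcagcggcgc
Fermt1 start (chr2:132945987-132946286, minus strand): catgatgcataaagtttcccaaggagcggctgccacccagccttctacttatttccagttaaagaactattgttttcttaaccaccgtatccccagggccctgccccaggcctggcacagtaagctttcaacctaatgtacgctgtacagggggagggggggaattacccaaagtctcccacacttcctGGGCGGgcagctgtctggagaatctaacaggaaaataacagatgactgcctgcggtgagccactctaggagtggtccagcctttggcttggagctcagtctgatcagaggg

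Of the 8 genes, 6 were in the RefSeq promoter table, with 10 windows, and Parva and Lims2 were not. GC boxes numbered 3 in the Lims1 window, 2 at Parvb, 6 at Fermt2, 1 at Fermt1 and 0 in the Ilk window shown, where 35.7% of the 32851 promoters in the table held at least 1. The single ETS core was at Ilk (8.86% of all promoters). None of the 5 windows held the letters of CCAAT, AP-1, TEAD or TATAAA, which 37.4%, 7.81%, 14.7% and 13.6% of all promoters held, and no matches overlapped. CpG dinucleotides numbered 29 at Ilk, 34 at Lims1, 24 at Parvb and 37 at Fermt2, more than in 87.1%, 92.3%, 80.0% and 94.4% of promoters, whose median was 7. Fermt1 had 5, more than 38.0% of promoters. Ilk has a second RefSeq start, whose window (chr7:105736475-105736774) overlaps the one shown and held 3 GC boxes and 37 CpG dinucleotides, so the absence of GC boxes belongs to that one window. The other Lims1 windows, further in, held 0 GC boxes each, and those of Parvg 0 and 2. These matches describe the letters and are not binding sites.

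Peaks and windows met differently at these starts. Both Ilk windows lay wholly (300 bases) in 1 peak, and 61 bases of the Parvb window lay in 1 peak. At Lims1, 274 bases of the window shown were spread over 2 peaks, while the Fermt2 window ended 19 bases short of a peak. No peak lay at the Fermt1 start: the nearest centre was 24.9 kb away. At the Parvg starts the nearest centres were 4.05 and 5.25 kb away. The peak on the Ilk start (chr7:105736299-105736800) is not among the 62, because its centre is 41 bp outside Ilk and inside Rrp8, a gene that overlaps Ilk over 796 bp.

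The 62 peaks passed the test about as often as peaks at large. On the deposited scale more were higher than lower against NTC in both sets. With shMed1 #4, 16 were higher and 5 lower than in NTC, or 33.9%, where 29.4% of all 75930 peaks tested passed (limma on log2 of the normalized count plus 1, Benjamini-Hochberg adjusted p under 0.05 over all peaks). With shMed1 #2, 19 were higher and 10 lower, or 46.8%, against 43.1% of all peaks. For the mean of both hairpins the counts were 19 higher and 9 lower, or 45.2%, against 39.8%. By direction, all peaks had 17.3% higher and 12.1% lower with shMed1 #4, 23.6% and 19.5% with shMed1 #2, and 22.1% and 17.7% for the mean of both. Median log2 changes of the 62 were 0.09 with shMed1 #4, 0.12 with shMed1 #2 and 0.08 for the mean of both, beside -0.01, -0.02 and -0.01 over all peaks. All 62 passed the filter on low values (a mean of at least 10), and their means over the 9 libraries ran from 31 to 4414 normalized counts with a median of 155, against 205 for all peaks. In such bulk samples a more open site in each cell and a larger share of cells with the site open cannot be told apart.

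The split by direction depended on scaling and on single libraries. With equal totals it was 9 higher and 6 lower for shMed1 #4, 12 and 14 for shMed1 #2 and 14 and 12 for the mean of both. Without NTC replicate 2, the counts were 9 higher for shMed1 #4, 12 higher and 4 lower for shMed1 #2, and 5 lower for the mean. Those for shMed1 #2 were also 12 higher without its replicate 3, 6 lower without its replicate 1 and 6 lower without NTC replicate 3. The mean contrast had 5 lower without NTC replicate 1.

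**Figure D1:**
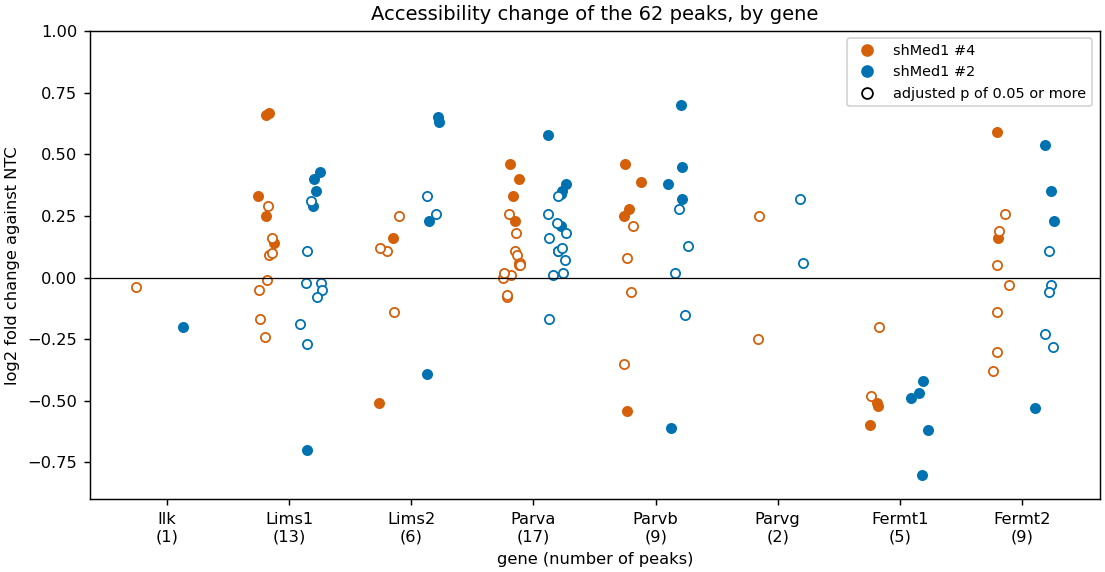
Log2 fold change against NTC (vertical axis) of each of the 62 peaks, in columns by gene with the number of peaks below, shMed1 #4 in orange to the left and shMed1 #2 in blue to the right. Filled points passed the test and open points did not: all 5 Fermt1 peaks lie below 0 under both hairpins, while Parva has no filled point below it.

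ILK. The hub of the complex had a single peak, 2.62 kb into the gene, and it was lower with shMed1 #2, a call that single libraries decide. This gene-body peak (chr7:105738963-105739464) held 758, 821 and 769 normalized counts with shMed1 #4, 665, 743 and 694 with shMed1 #2, and 761, 811 and 849 in NTC. The shMed1 #2 libraries lay below all NTC libraries, while those of shMed1 #4 overlapped NTC. The log2 change was -0.04 ± 0.07 (adjusted p = 0.68) with shMed1 #4, -0.20 ± 0.07 (adjusted p = 0.0168) with shMed1 #2 and -0.12 ± 0.06 (adjusted p = 0.101) for their mean. Hairpin #4 against hairpin #2 gave 0.16 ± 0.07 (adjusted p = 0.1), so a difference between them was not shown. Without shMed1 #2 replicate 1, NTC replicate 2 or NTC replicate 3 the adjusted p for shMed1 #2 was 0.0623, 0.0554 or 0.102.

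The peak that covers the Ilk start window printed above behaved otherwise. It held 2093, 2013 and 1966 normalized counts with shMed1 #4, 2063, 2027 and 1989 with shMed1 #2, and 1796, 1798 and 1789 in NTC, with both hairpin groups above every NTC library. Its log2 change was 0.17 ± 0.05 (adjusted p = 0.00568) with shMed1 #4, 0.18 ± 0.05 (adjusted p = 0.00327) with shMed1 #2 and 0.17 ± 0.04 (adjusted p = 8.82e-04) for the mean. Ilk and Rrp8 share this stretch and cannot be told apart here. The mean change no longer passed with equal totals (0.10, adjusted p = 0.0534) or cyclic loess (0.07, 0.141). The shMed1 #4 call was lost with cyclic loess (0.236), quantile scaling (0.0962) or equal totals (0.0893), and that of shMed1 #2 with cyclic loess (0.203), quantile scaling (0.0821) or equal totals (0.119).

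PINCH. Some peaks inside both PINCH genes were higher, while the pair at the Lims1 start changed by 0.06 and 0.03 on the log2 scale in the mean of both hairpins and did not pass. Of the 13 Lims1 peaks, 5 were higher and 1 lower in the mean of both hairpins, and of the 6 Lims2 peaks 3 were higher and 1 lower. Over all peaks 22.1% were higher and 17.7% lower there, and 39.8% called in all, beside 52.6% called of the 19 PINCH peaks (8 higher and 2 lower). The hairpins differed at both genes: a rise deep in Lims1 was larger with shMed1 #4, and 2 of the 3 Lims2 rises were larger with shMed1 #2.

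Lims1 encodes PINCH1, the adaptor that most adherent cells use. The centres of a pair of peaks lie on either side of the annotated 5′ end of the gene. The downstream peak covers most of the window above, with the RefSeq start of that window. The upstream one (chr10:58322853-58323354) held 2462, 2367 and 2423 normalized counts with shMed1 #4, 2094, 2135 and 2260 with shMed1 #2, and 2177, 2193 and 2226 in NTC. All shMed1 #4 libraries were above the others, and the log2 change was 0.14 ± 0.05 (adjusted p = 0.0238) with shMed1 #4 and -0.02 ± 0.05 (adjusted p = 0.703) with shMed1 #2. The downstream one (chr10:58323380-58323881), the strongest Lims1 peak, held 2410 ± 53.3 normalized counts with shMed1 #4, 2225 ± 21.7 with shMed1 #2 and 2261 ± 72.1 in NTC (SD, n = 3 each), with changes of 0.09 ± 0.05 (adjusted p = 0.133) and -0.02 ± 0.05 (adjusted p = 0.719). The call for the upstream peak was lost with equal totals (adjusted p = 0.267), quantile scaling (0.57) and cyclic loess (0.701), and without shMed1 #4 replicate 1 (0.0818) or 3 (0.0558) or NTC replicate 1 (0.0579) or 2 (0.0773).

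Deep in Lims1, 60.2 kb from the start, a peak (chr10:58383308-58383809) held 449, 495 and 489 normalized counts with shMed1 #4, 317, 369.7 and 424 with shMed1 #2, and 298, 276 and 333 in NTC. The shMed1 #4 libraries were above all others, while shMed1 #2 overlapped NTC. The log2 change was 0.66 ± 0.10 (adjusted p = 5.69e-07) with shMed1 #4, 0.29 ± 0.10 (adjusted p = 0.0157) with shMed1 #2 and 0.47 ± 0.08 (adjusted p = 1.11e-05) for the mean. The shMed1 #2 call was lost without its replicate 3 (adjusted p = 0.171) or NTC replicate 2 (0.112) and with equal totals (0.0894), quantile scaling (0.0525) and cyclic loess (0.0511).

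Nearer the start, at 13 kb, a weak peak (chr10:58336088-58336589) went the other way and in one group alone. It held 130.1, 126 and 129 normalized counts with shMed1 #4, 84.3, 62.2 and 95.2 with shMed1 #2, and 122, 139 and 127 in NTC. Every shMed1 #2 library was below every other library, and shMed1 #4 overlapped NTC. Changes were -0.01 ± 0.16 (adjusted p = 0.979) with shMed1 #4 and -0.70 ± 0.16 (adjusted p = 4.25e-04) with shMed1 #2, and -0.35 ± 0.14 (adjusted p = 0.0392) for the mean. The mean contrast rests on shMed1 #2 and lost its call without NTC replicate 1, 2 or 3 (adjusted p = 0.0545, 0.173 and 0.0921), without replicate 2 of shMed1 #2 (0.116) or of shMed1 #4 (0.0582), and with quantile scaling (0.0921) or cyclic loess (0.114). The other Lims1 peaks had means of 56.4 to 523 normalized counts, and 4 of those 9 were higher and 0 lower in the mean of both hairpins.

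Lims2 encodes PINCH2, the second ILK-binding PINCH. Its strongest peak (chr18:31935366-31935867), 13.3 kb inside the gene, held 2472, 2347 and 2299 normalized counts with shMed1 #4, 3194, 3349 and 3448 with shMed1 #2, and 2271, 2011 and 2094 in NTC. The 3 groups did not overlap: shMed1 #2 was highest, then shMed1 #4, then NTC. Log2 changes were 0.16 ± 0.05 (adjusted p = 0.00928) with shMed1 #4 and 0.65 ± 0.05 (adjusted p = 1.14e-15) with shMed1 #2. The shMed1 #4 call was lost without its replicate 1 (adjusted p = 0.0675) or NTC replicate 2 (0.111) and under equal totals (0.133), quantile scaling (0.301) and cyclic loess (0.548). The shMed1 #2 call held in every alternative run.

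A neighbouring Lims2 peak (chr18:31933354-31933855) held 877, 863 and 839 normalized counts with shMed1 #4, 1136, 1271 and 1296 with shMed1 #2, and 883, 786 and 719.7 in NTC, so shMed1 #2 stood above the overlapping libraries of shMed1 #4 and NTC. It changed by 0.12 ± 0.07 (adjusted p = 0.213) with shMed1 #4 and 0.63 ± 0.07 (adjusted p = 1.33e-10) with shMed1 #2. One intergenic Lims2 peak, 3.79 kb outside the gene (chr18:31918253-31918754), was lower: it held 141, 154 and 178 normalized counts with shMed1 #4, 176, 185 and 151 with shMed1 #2, and 193, 242 and 240.2 in NTC. Both hairpin groups were below all NTC libraries, with changes of -0.51 ± 0.13 (adjusted p = 0.00192) for shMed1 #4 and -0.39 ± 0.13 (adjusted p = 0.0111) for shMed1 #2. The second of these was lost without shMed1 #2 replicate 3 (adjusted p = 0.0796), NTC replicate 2 (0.0696) or NTC replicate 3 (0.0645). Lims2 had no peak within 1 kb of either end.

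Parvins. Parva and Parvb, which encode the parvins that link ILK to actin outside the blood lineage, had strong peaks inside the gene that were higher with both hairpins, and gene-end peaks that did not pass. Of the 28 peaks at the 3 parvin genes, 9 were higher and 1 lower in the mean of both hairpins, or 35.7% called, beside 39.8% of all peaks. By direction that is 32.1% higher and 3.57% lower, beside 22.1% and 17.7%. None of the 17 Parva peaks was called lower in any comparison against NTC.

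The strongest of all 62 peaks was in Parva, 40.3 kb from the nearer gene end (chr7:112467719-112468220). It held 4767, 5249 and 4939 normalized counts with shMed1 #4, 4228, 4488 and 5142 with shMed1 #2, and 3865, 3545 and 3499 in NTC. Every hairpin library was above every NTC library. Log2 changes were 0.46 ± 0.05 (adjusted p = 9.86e-11) with shMed1 #4, 0.34 ± 0.05 (adjusted p = 4.92e-08) with shMed1 #2 and 0.40 ± 0.04 (adjusted p = 2.59e-11) for the mean of both. Quantile scaling and cyclic loess brought the mean change to 0.20 and 0.25, still past the threshold. The Parva gene-end peak (chr7:112428029-112428530) held 1831, 1827 and 1816 normalized counts with shMed1 #4, 1692, 1694 and 1923 with shMed1 #2, and 1817, 1700 and 1742 in NTC, all groups overlapping. Its changes were 0.06 ± 0.05 (adjusted p = 0.436) with shMed1 #4 and 0.01 ± 0.05 (adjusted p = 0.88) with shMed1 #2, and the 95% interval for the mean of both was -0.06 to 0.13.

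At 30.9 kb from that end another Parva peak (chr7:112458384-112458885) held 943, 983 and 1008 normalized counts with shMed1 #4, 1074, 1083 and 1165 with shMed1 #2, and 794, 709 and 716 in NTC, the 3 groups being apart from each other. It rose by 0.40 ± 0.07 (adjusted p = 3.49e-06) with shMed1 #4 and 0.58 ± 0.07 (adjusted p = 3.56e-10) with shMed1 #2. A peak further in (chr7:112502880-112503381) held 573, 686 and 595 normalized counts with shMed1 #4, 502, 509 and 577 with shMed1 #2, and 599.8, 594 and 593 in NTC, changes of 0.05 ± 0.08 (adjusted p = 0.683) and -0.17 ± 0.08 (adjusted p = 0.0761), and passed only in the direct comparison of the hairpins given later. The other 13 Parva peaks had means of 31 to 1648 normalized counts, of which 3 were higher in the mean of both hairpins.

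Parvb encodes parvin beta. Its strongest peak (chr15:84280585-84281086), 48.8 kb from the start, held 4118, 4158 and 3929 normalized counts with shMed1 #4, 4215, 4168 and 4353 with shMed1 #2, and 3443, 2961 and 2915 in NTC. Both hairpin groups lay above all NTC libraries, by 0.39 ± 0.05 (adjusted p = 1.67e-09) with shMed1 #4 and 0.45 ± 0.05 (adjusted p = 1.07e-11) with shMed1 #2 on the log2 scale. The mean of both was 0.42 ± 0.04 (adjusted p = 1.39e-12), and 0.26 with quantile scaling, still past the threshold. The peak at the Parvb start (chr15:84232031-84232532), which reaches into the window shown above, held 842, 751 and 833 normalized counts with shMed1 #4, 944, 820 and 997 with shMed1 #2, and 818, 818 and 889 in NTC, the groups overlapping. Changes there were -0.06 ± 0.07 (adjusted p = 0.572) with shMed1 #4 and 0.13 ± 0.07 (adjusted p = 0.153) with shMed1 #2.

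A weaker Parvb peak, 63.3 kb from the start (chr15:84295130-84295631), held 399, 423 and 425 normalized counts with shMed1 #4, 529.8, 559 and 583 with shMed1 #2, and 374, 324 and 333 in NTC. The groups did not overlap, and the change was 0.28 ± 0.09 (adjusted p = 0.0123) with shMed1 #4 and 0.70 ± 0.09 (adjusted p = 4.24e-09) with shMed1 #2. Equal totals (adjusted p = 0.0602) and leaving out NTC replicate 2 (0.0812) or 3 (0.0542) ended the shMed1 #4 call. One Parvb peak was lower, at 28.5 kb (chr15:84260280-84260781), with 136, 141 and 141 normalized counts with shMed1 #4, 148, 126 and 127 with shMed1 #2, and 189, 194 and 230.1 in NTC. Every hairpin library there was below every NTC library, with changes of -0.54 ± 0.13 (adjusted p = 0.00133) with shMed1 #4 and -0.61 ± 0.13 (adjusted p = 1.95e-04) with shMed1 #2, and both calls held in every alternative run.

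Parvg, which encodes the parvin of blood cells, had 2 weak peaks and neither passed. The one inside the gene (chr15:84331120-84331621) held 86, 86.3 and 99 normalized counts with shMed1 #4, 87.9, 88.7 and 110 with shMed1 #2, and 85.1, 87.6 and 58.5 in NTC, with changes of 0.25 ± 0.18 (adjusted p = 0.321) and 0.32 ± 0.18 (adjusted p = 0.152). Its 95% interval for the mean of both hairpins on the log2 scale ran over -0.03 to 0.60.

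**Figure D2:**
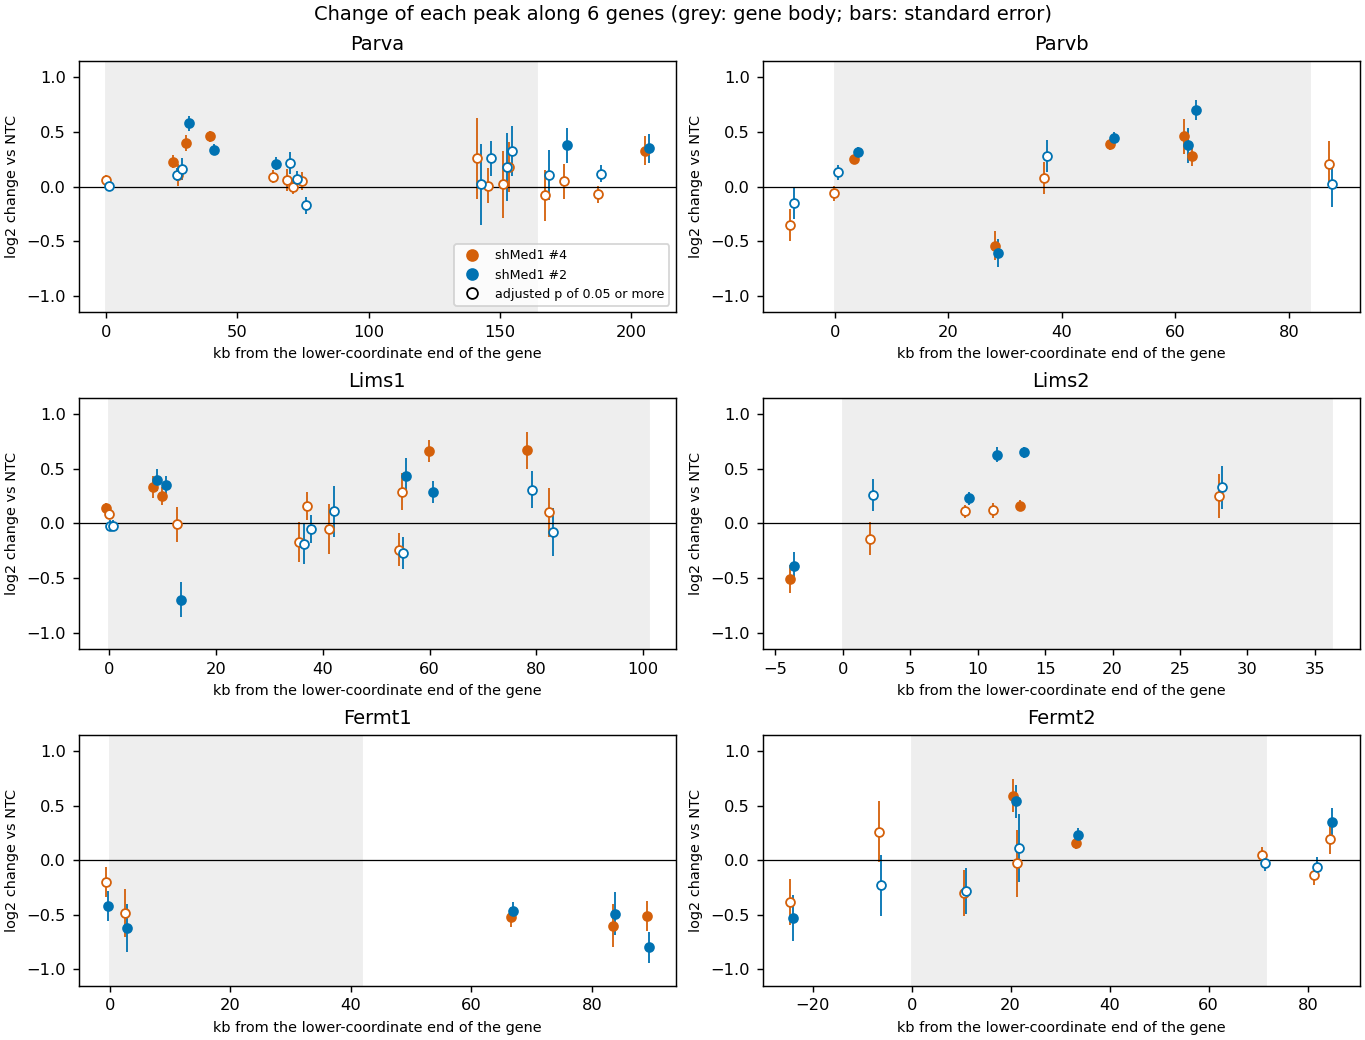
Log2 change against NTC (vertical axis, bars: standard error) of each peak along 6 of the genes, placed by distance in kb from the lower-coordinate end of the gene (horizontal axis, grey: gene body), with shMed1 #4 in orange and shMed1 #2 in blue and open points where the adjusted p was 0.05 or more. The peaks at the ends of Parva, Parvb and Fermt2 lie near 0, the Parva and Parvb bodies hold filled points between 0.21 and 0.70 and 1 lower Parvb peak at -0.54 and -0.61, and the Fermt1 points all lie below 0.

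Kindlins. Fermt1 was the one gene of the 8 with every peak lower in the mean of both hairpins: 5 of 5 passed there and with shMed1 #2, and 3 of 5 with shMed1 #4. Fermt2 had 2 higher and 1 lower of 9 in the mean of both, where 22.1% of all peaks were higher and 17.7% lower. FERMT1 is the kindlin of epithelia and FERMT2 the widely made one. The Fermt1 peaks were weak, with means of 60.6 to 374 normalized counts, and 3 of the 5 lay 24.9 to 47.4 kb upstream of the start, outside the gene.

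The strongest Fermt1 peak (chr2:132970706-132971207), 24.9 kb upstream, held 289, 340.3 and 341 normalized counts with shMed1 #4, 363, 304 and 341 with shMed1 #2, and 460.2, 456 and 473 in NTC. Both hairpin groups were below all NTC libraries. The log2 change was -0.52 ± 0.09 (adjusted p = 2.12e-05) with shMed1 #4, -0.47 ± 0.09 (adjusted p = 6.65e-05) with shMed1 #2 and -0.49 ± 0.08 (adjusted p = 2.41e-06) for the mean, and these calls held in every alternative run. The peak at the 3′ end of Fermt1 (chr2:132903478-132903979), far from the CpG-poor start shown above, held 119.8, 160.2 and 161 normalized counts with shMed1 #4, 117, 130.1 and 126 with shMed1 #2, and 170.1, 187 and 146 in NTC. Hairpin #4 overlapped NTC and hairpin #2 did not, with changes of -0.20 ± 0.14 (adjusted p = 0.314) and -0.42 ± 0.14 (adjusted p = 0.0137). The shMed1 #2 call ended without NTC replicate 2 (adjusted p = 0.0973). The other 3 changed by -0.54 to -0.66 in the mean of both hairpins. Of the 5 calls in the mean of both, those at the 3′ end, at chr2:132906675-132907176 and at chr2:132987602-132988103 were lost without NTC replicate 1 (adjusted p = 0.107, 0.0748 and 0.0649), and the first 2 also without NTC replicate 2 (0.241 and 0.114). The shMed1 #2 call at the peak starting at 132906675 was lost without shMed1 #2 replicate 1 (0.122), NTC replicate 1 (0.063) or NTC replicate 2 (0.0926). At the peak starting at 132987602 it was lost without shMed1 #2 replicate 1 (0.528), NTC replicate 1 (0.141), NTC replicate 2 (0.0929) or NTC replicate 3 (0.0636), where the change was -0.17 without the first of these, in place of -0.49 ± 0.20 (adjusted p = 0.0457). It was lost as well with array quality weights (0.102), cyclic loess (0.105) or quantile scaling (0.0995), and the shMed1 #4 call without shMed1 #4 replicate 1 (0.0828), shMed1 #4 replicate 2 (0.051), NTC replicate 1 (0.0808) or NTC replicate 2 (0.0568).

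At Fermt2 the peak by the start (chr14:45529495-45529996), next to the GC-box-rich window, held 1043, 972 and 1035 normalized counts with shMed1 #4, 1118, 888 and 904 with shMed1 #2, and 894, 1052 and 1011 in NTC. The groups overlapped and the changes were 0.05 ± 0.07 (adjusted p = 0.662) with shMed1 #4 and -0.03 ± 0.07 (adjusted p = 0.78) with shMed1 #2. The strongest Fermt2 peak (chr14:45491990-45492491), 38.1 kb into the gene, held 1345, 1370 and 1441 normalized counts with shMed1 #4, 1436, 1482 and 1417 with shMed1 #2, and 1190, 1236 and 1282 in NTC. Both hairpin groups were above all NTC libraries, by 0.16 ± 0.06 (adjusted p = 0.0228) and 0.23 ± 0.06 (adjusted p = 0.00104). The shMed1 #4 call was lost without its replicate 3 (adjusted p = 0.108), without NTC replicate 1 (0.0962) or 2 (0.0675) and with equal totals (0.192), quantile scaling (0.108) or cyclic loess (0.206). The shMed1 #2 change was 0.14 with equal totals and 0.14 with cyclic loess, still passing.

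A weak Fermt2 gene-body peak (chr14:45479295-45479796) held 186, 139 and 141 normalized counts with shMed1 #4, 135, 145 and 167 with shMed1 #2, and 105, 82 and 123 in NTC, both hairpin groups above NTC. It changed by 0.59 ± 0.15 (adjusted p = 0.00249) with shMed1 #4 and 0.54 ± 0.15 (adjusted p = 0.00361) with shMed1 #2, where the second was lost without NTC replicate 2 (adjusted p = 0.062). Beyond the far end of the gene, a peak (chr14:45434218-45434719) held 63.5, 53.8 and 76.8 normalized counts with shMed1 #4, 52.7, 54.1 and 67.3 with shMed1 #2, and 73.4, 86.6 and 92.9 in NTC. Hairpin #2 was below NTC and hairpin #4 overlapped it, with changes of -0.38 ± 0.21 (adjusted p = 0.156) and -0.53 ± 0.21 (adjusted p = 0.0317). Leaving out replicate 1 or 2 of shMed1 #2 (adjusted p = 0.0914 and 0.0858) or NTC replicate 2 or 3 (0.0915 and 0.13) ended that call, as did cyclic loess (0.0817) and quantile scaling (0.0762).

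The hairpins compared. Set directly against shMed1 #2, shMed1 #4 was higher at 4 of the 62 peaks and lower at 5, or 14.5%, beside 21.5% of all peaks (8.48% higher and 13.0% lower). With equal totals the split was 6 and 3, and with quantile scaling or cyclic loess 5 and 4. Without shMed1 #2 replicate 3 it was 7 and 3, and 3 were lower without shMed1 #4 replicate 3 or NTC replicate 2. Both hairpin groups are set against the same NTC libraries in the comparisons above, so likeness between those is not counted as a result.

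The PINCH genes held 6 of these 9 peaks. At the strongest Lims2 peak shMed1 #4 minus shMed1 #2 was -0.49 ± 0.05 (adjusted p = 4.21e-11), and at the neighbouring peak -0.52 ± 0.07 (adjusted p = 8.34e-08). A further Lims2 peak (chr18:31924159-31924660) held 119.8, 125 and 91.2 normalized counts with shMed1 #4, 132, 159 and 151 with shMed1 #2, and 131, 122 and 116 in NTC, a difference of -0.40 ± 0.15 (adjusted p = 0.0474). Its call was lost, with the adjusted p in parentheses, without shMed1 #4 replicate 3 (0.277), shMed1 #2 replicate 2 (0.172), shMed1 #2 replicate 3 (0.119), NTC replicate 1 (0.0516), NTC replicate 2 (0.0569) or NTC replicate 3 (0.0508), and without the first of these the difference was -0.26. It was also lost with voom weights (0.0586), a fit of only the groups compared (0.0605) or equal totals (0.0582). Lims1 went the opposite way, with 0.69 ± 0.16 (adjusted p = 0.00107) at its lower peak, 0.38 ± 0.10 (adjusted p = 0.00347) at the deep peak and 0.16 ± 0.05 (adjusted p = 0.00967) upstream of the start, and all 3 held in every alternative run.

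Among the parvins, the Parvb peak at 63.3 kb differed by -0.42 ± 0.09 (adjusted p = 2.19e-04), in every alternative run. The Parva peaks at 30.9 and 75.4 kb differed by -0.18 ± 0.07 (adjusted p = 0.0449) and 0.22 ± 0.08 (adjusted p = 0.0396). The call at 30.9 kb was lost, with the adjusted p in parentheses, without shMed1 #4 replicate 1 (0.145), shMed1 #4 replicate 2 (0.0956), shMed1 #4 replicate 3 (0.0538), shMed1 #2 replicate 2 (0.0711), shMed1 #2 replicate 3 (0.189) or NTC replicate 2 (0.0558). That at 75.4 kb was lost without shMed1 #4 replicate 2 (0.292), shMed1 #2 replicate 1 (0.116), shMed1 #2 replicate 2 (0.14) or NTC replicate 2 (0.0532), and was 0.14 without the first of these. Among other settings, the call at 30.9 kb was lost with cyclic loess (0.117), quantile scaling (0.153) or equal totals (0.0672), and that at 75.4 kb with voom weights (0.061) or a fit of only the groups compared (0.0607). No peak of Ilk, Parvg, Fermt1 or Fermt2 passed between the hairpins. For the strongest Fermt1 peak the interval of the difference was -0.24 to 0.13, and for the strongest Fermt2 peak -0.17 to 0.05.

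**Figure D3:**
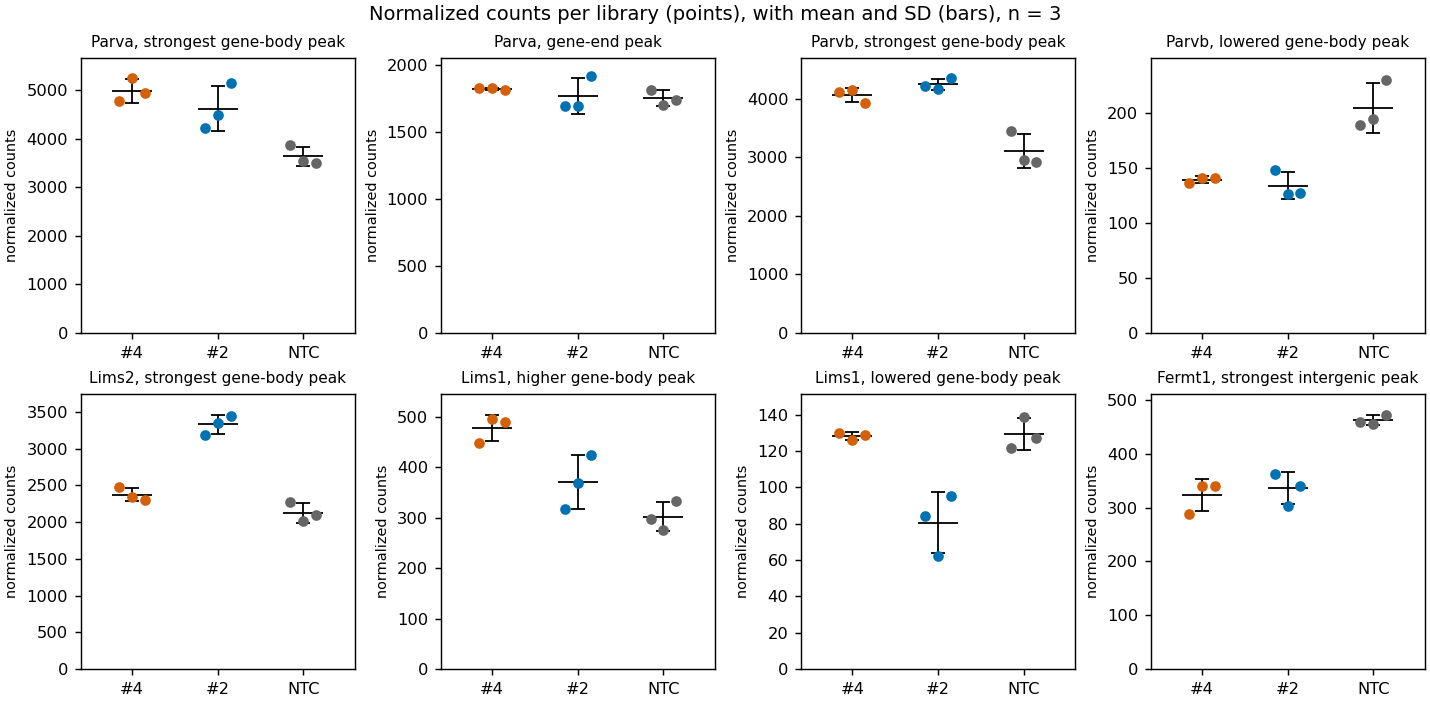
Normalized counts (vertical axes from 0) of 8 named peaks in each library (points), with mean and SD as bars, n = 3, in the order shMed1 #4, shMed1 #2 and NTC. The Parva gene-end panel shows groups that overlap, the Lims2 panel shMed1 #2 at 3194 to 3448 above both other groups, and the lowered Lims1 panel shMed1 #2 at 62.2 to 95.2 below both.

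Sums per gene. Adding the peaks of a gene gives 1 value per library, in which strong peaks count most. With shMed1 #4, 4 of the 8 sums were higher and 1 lower than in NTC, where 44.2% of the 15838 genes passed. With shMed1 #2, 4 were higher and 2 lower, against 55.0% of genes, and for the mean of both hairpins 5 were higher and 1 lower, against 53.8%. Between the hairpins, shMed1 #4 against shMed1 #2, 1 was higher and 2 lower, against 24.5%. By direction, all gene sums had 23.8% higher and 20.5% lower with shMed1 #4, and 26.5% and 28.5% with shMed1 #2. For the mean of both these shares were 27.0% and 26.8%, and between the hairpins 11.7% and 12.8%. With single libraries left out, the lower count was 2 for the mean without shMed1 #2 replicate 2 or NTC replicate 1, and 1 for shMed1 #2 without NTC replicate 3. Between the hairpins it was 1 without any one shMed1 #4 library, shMed1 #2 replicate 2 or 3, or NTC replicate 2, and the higher count was 2 without shMed1 #2 replicate 3. Equal totals gave 3 higher and 2 lower for the mean, and quantile scaling or cyclic loess 2 and 1. Over all 15838 gene sums, equal totals gave 2727 higher and 6811 lower for the mean, quantile scaling 3689 and 3827, and cyclic loess 3819 and 3530.

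Parvb summed to 9609 ± 98.3 normalized counts with shMed1 #4, 10228 ± 319.6 with shMed1 #2 and 8064 ± 427 in NTC (SD, n = 3 each), a log2 change of 0.25 ± 0.03 (adjusted p = 2.56e-07) with shMed1 #4 and 0.34 ± 0.03 (adjusted p = 3.68e-10) with shMed1 #2. For Parva the sums were 14028 ± 388 normalized counts with shMed1 #4, 13862 ± 1056 with shMed1 #2 and 11946 ± 326 in NTC (SD, n = 3 each), with changes of 0.23 ± 0.04 (adjusted p = 4.34e-06) and 0.21 ± 0.04 (adjusted p = 9.90e-06). For both genes every hairpin sum was above every NTC sum. Parvb differed between the hairpins by -0.09 ± 0.03 (adjusted p = 0.045), which was lost without shMed1 #4 replicate 1 (0.0657), shMed1 #4 replicate 2 (0.119), shMed1 #4 replicate 3 (0.122), shMed1 #2 replicate 2 (0.0852), shMed1 #2 replicate 3 (0.171) or NTC replicate 2 (0.0581), and with a 10 kb assignment limit (0.0533), cyclic loess (0.108), quantile scaling (0.117) or equal totals (0.0587). Both changes moved with the scaling. For Parvb the mean of both hairpins, 0.30 ± 0.03 (adjusted p = 3.48e-10), was 0.15 with quantile scaling and 0.14 with cyclic loess, still passing. For Parva it was 0.03 under each and did not pass, nor did either hairpin alone.

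Lims2 summed to 4866 ± 116 normalized counts with shMed1 #4, 6369 ± 232 with shMed1 #2 and 4527 ± 208 in NTC (SD, n = 3 each). The change was 0.10 ± 0.04 (adjusted p = 0.0184) with shMed1 #4 and 0.49 ± 0.04 (adjusted p = 1.44e-12) with shMed1 #2, and -0.39 ± 0.04 (adjusted p = 1.67e-09) between them. Lims1 summed to 7077 ± 84.7 normalized counts with shMed1 #4, 6500 ± 171 with shMed1 #2 and 6317 ± 87.7 in NTC (SD, n = 3 each), with 0.16 ± 0.03 (adjusted p = 6.66e-05) and 0.04 ± 0.03 (adjusted p = 0.265). Its mean change of 0.10 turned to -0.03 with quantile scaling and -0.02 with cyclic loess. The Lims1 call with shMed1 #4 was lost with cyclic loess (0.05, 0.162) or quantile scaling (0.04, 0.257), where the shMed1 #2 sum passed as lower (-0.10, adjusted p = 0.0058, and -0.09, 0.0103). The mean call of Lims1 was also lost with equal totals (0.03, 0.292). The shMed1 #4 call at Lims2 was lost with assignment to the nearest gene end (0.01, 0.843), cyclic loess (0.01, 0.763), quantile scaling (0.03, 0.517) or equal totals (0.04, 0.362). Assigning peaks to the nearest gene end brought the Lims2 change to 0.16 with shMed1 #2 and to -0.14 between the hairpins, both still passing, and the mean of both to 0.09, which did not pass (adjusted p = 0.085). The shMed1 #4 call was lost, too, without its replicate 1 or 2 (adjusted p = 0.0647 and 0.0783) or NTC replicate 2 or 3 (0.0913 and 0.125).

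Fermt1 fell, with 723 ± 76 normalized counts with shMed1 #4, 694 ± 27.2 with shMed1 #2 and 998 ± 29.1 in NTC (SD, n = 3 each), a log2 change of -0.47 ± 0.07 (adjusted p = 3.36e-06) with shMed1 #4 and -0.52 ± 0.07 (adjusted p = 2.95e-07) with shMed1 #2. Fermt2 summed to 3308 ± 93.3 normalized counts with shMed1 #4, 3343 ± 68.7 with shMed1 #2 and 3117 ± 145 in NTC (SD, n = 3 each), with 0.09 ± 0.04 (adjusted p = 0.0719) and 0.10 ± 0.04 (adjusted p = 0.0283), and the mean call was lost without NTC replicate 1 (adjusted p = 0.209) and that of shMed1 #2 without shMed1 #2 replicate 1 (0.0672) or NTC replicate 1 (0.199). The mean call of Fermt2 was also lost with cyclic loess (0.06, 0.142), quantile scaling (0.06, 0.135) or equal totals (0.02, 0.563), and that of shMed1 #2 with cyclic loess (0.07, 0.119), quantile scaling (0.07, 0.114) or equal totals (0.03, 0.579). At Fermt1 the shMed1 #4 call was lost with a 10 kb assignment limit (-0.28, 0.0814). The Parvg sum, 136 ± 10.3 normalized counts with shMed1 #4, 153 ± 16.9 with shMed1 #2 and 131 ± 14.9 in NTC (SD, n = 3 each), did not pass in any comparison. Ilk has 1 peak, so its sum is the peak above. Among sums, its shMed1 #2 call was lost without NTC replicate 3 (0.0777) and with cyclic loess (0.251) or quantile scaling (0.133), and assignment to the nearest gene end turned the change to 0.18.

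**Figure D4:**
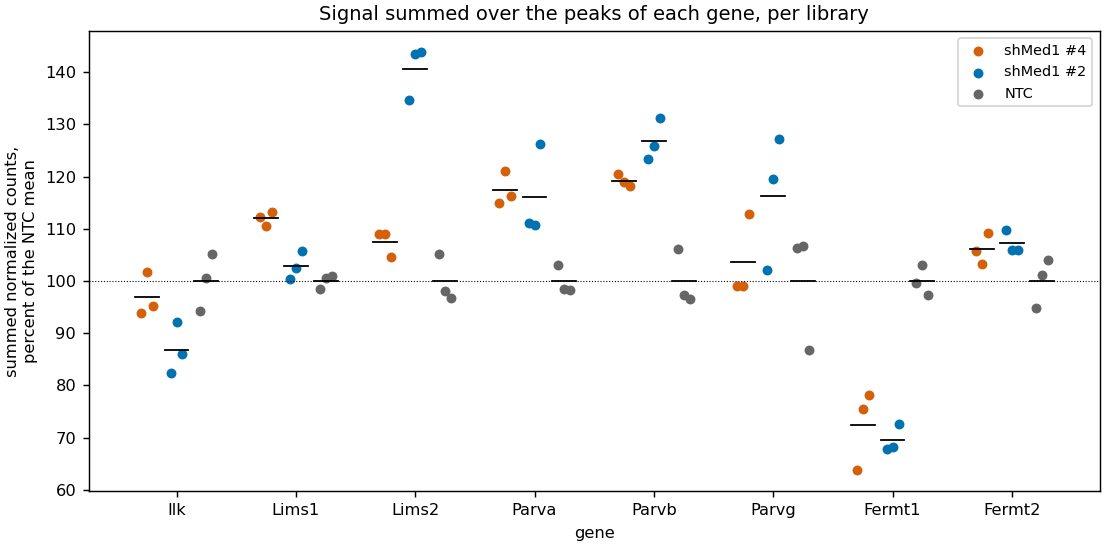
Normalized counts summed over the peaks of each gene, per library, as a percent of the NTC mean (vertical axis), shMed1 #4 in orange, shMed1 #2 in blue and NTC in grey, with group means as lines. Fermt1 hairpin libraries all lie below the NTC libraries, Parva and Parvb hairpin libraries all lie above, and at Lims2 the shMed1 #2 libraries stand apart from both other groups.

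Place and strength. Gene bodies held 41 of the 62 peaks, and calls against NTC lay mostly there and upwards. In the mean of both hairpins, 18 of the 41 gene-body peaks were higher and 3 lower, or 43.9% and 7.32%, where 24.3% and 14.0% of all gene-body peaks were. Of the 6 gene-end peaks (centre within 1 kb of an annotated end), 0 were higher and 1 lower, against 14.3% and 32.8% of all gene-end peaks, and that one, at the 3′ end of Fermt1, was lost without replicate 1 of shMed1 #4, shMed1 #2 or NTC, without NTC replicate 2, and with quantile scaling or cyclic loess. Intergenic peaks were higher in 1 and lower in 5 of 15, against 22.3% and 17.1%, and 3 of the 5 lower ones belong to Fermt1. With equal totals the gene-body split was 14 and 5 and the intergenic one 0 and 6. Without NTC replicate 1 or 2, only 1 gene-body peak was lower. The intergenic count of 1 higher was 0 without shMed1 #2 replicate 3 or NTC replicate 2, and 2 without shMed1 #4 replicate 1 or shMed1 #2 replicate 1 or 2.

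Higher calls gathered among the strong peaks. Of the 20 peaks with a mean of at least 500 normalized counts, a limit chosen after the values were seen, 11 were higher and 0 lower in the mean of both hairpins, while the 42 weaker peaks split into 8 higher and 9 lower. Over all peaks of that strength 42.3% were higher and 18.8% lower. Among gene-body peaks with a mean of at least 500, 11 of 14 were higher, or 78.6%, and 0 lower, that Lims1 peak included. Of all such peaks 56.4% were higher and 9.41% lower, so strong gene-body peaks elsewhere also tended upwards. Equal totals and quantile scaling gave 8 higher and 1 lower among the 20, and cyclic loess 7 and 1. Without Fermt1, the other 57 peaks had 19 higher and 4 lower, or 33.3% and 7.02%, beside 22.1% and 17.7% of all peaks. All 5 Fermt1 peaks were lower, so leaving them out moves the split upwards by itself. Weak peaks had larger standard errors, up to 0.32 for the mean of both hairpins.

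**Figure D5:**
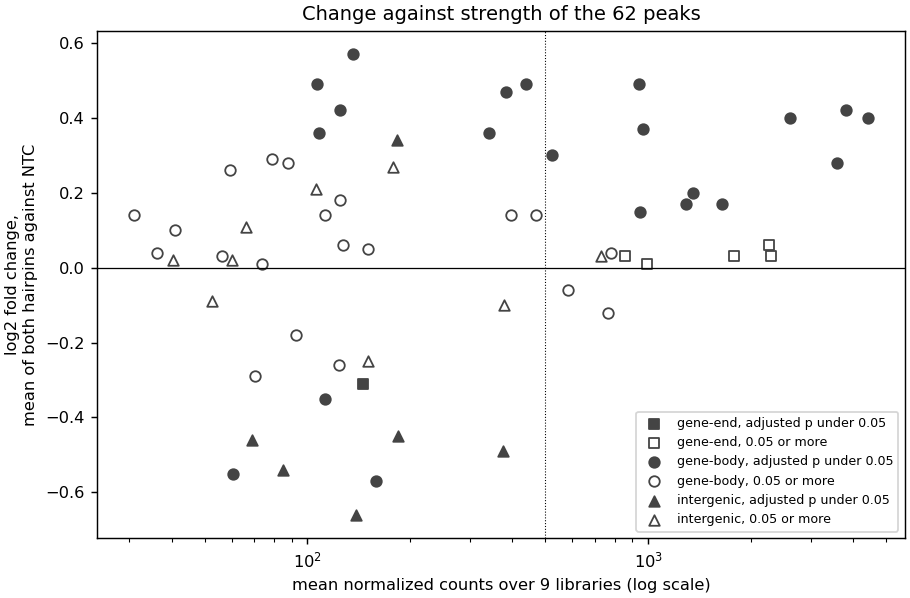
Log2 fold change of the mean of both hairpins against NTC (vertical axis) by the mean normalized count over 9 libraries (horizontal axis, log scale) for the 62 peaks, with squares for gene-end, circles for gene-body and triangles for intergenic peaks, filled where the adjusted p was under 0.05. Right of the dotted line at 500, the 11 filled points all lie above 0, and the gene-end squares there lie close to 0.

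Partners. Binding partners and neighbours of the complex, a list of 25 genes such as talins, paxillin family members, vinculin, integrin beta chains and RSU1, held 291 peaks at 24 of the genes. Of these, 76 were higher and 18 lower with shMed1 #4 (32.3% called), 91 and 26 with shMed1 #2 (40.2%) and 88 and 28 in the mean of both hairpins (39.9%). Their median log2 change was 0.08 in all 3. Direct comparison of shMed1 #4 with shMed1 #2 gave 40 higher and 38 lower (26.8%). Over all peaks the called shares were 29.4%, 43.1%, 39.8% and 21.5%. With equal totals the splits were 59 and 30, 65 and 48, and 63 and 46, and quantile scaling gave 74 and 39 for shMed1 #2. Leaving out single libraries brought the lower count to 8 without NTC replicate 2, 9 without NTC replicate 3, 9 without shMed1 #4 replicate 3 and 10 without shMed1 #4 replicate 2 for shMed1 #4. It brought it to 17 without NTC replicate 3 for shMed1 #2, and to 17 and 18 without NTC replicates 2 and 3 for the mean. Between the hairpins the lower count was 25 without shMed1 #4 replicate 2.

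Actn1, an alpha-actinin that crosslinks actin at adhesions, had a gene-body peak (chr12:80220292-80220793) with 4992, 5595 and 5067 normalized counts with shMed1 #4, 4717, 4991 and 5541 with shMed1 #2, and 3851, 3415 and 3334 in NTC. All hairpin libraries were above NTC, and the mean of both hairpins rose by 0.54 ± 0.04 (adjusted p = 2.61e-15). Near Ptk2, which encodes focal adhesion kinase, an intergenic peak (chr15:73434889-73435390) held 6023 ± 83.4 normalized counts with shMed1 #4, 6408 ± 210.5 with shMed1 #2 and 4698 ± 241 in NTC (SD, n = 3 each) and rose by 0.40 ± 0.03 (adjusted p = 1.17e-14). Inside Itgb3, the integrin beta 3 chain, a peak (chr11:104624603-104625104) held 1532 ± 19 normalized counts with shMed1 #4, 1414 ± 75.6 with shMed1 #2 and 942 ± 82.1 in NTC (SD, n = 3 each) and rose by 0.65 ± 0.05 (adjusted p = 3.37e-14). With quantile scaling the Actn1 rise was 0.35 and the Ptk2 rise 0.15, and with cyclic loess the Ptk2 rise was 0.24, all still passing.

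Other partner peaks were lower. The gene-end peak of Actn4, a second actinin (chr7:28962044-28962545), held 1181 ± 109.9 normalized counts with shMed1 #4, 1069 ± 97.8 with shMed1 #2 and 1362 ± 57.9 in NTC (SD, n = 3 each) and changed by -0.28 ± 0.06 (adjusted p = 8.32e-05) averaged over both hairpins, where the shMed1 #4 call was lost without its replicate 2 (adjusted p = 0.18) or NTC replicate 3 (0.0832). A gene-end peak of Pxn, the adhesion scaffold paxillin (chr5:115556121-115556622), held 257 ± 11.9 normalized counts with shMed1 #4, 243 ± 8.15 with shMed1 #2 and 329 ± 2.45 in NTC (SD, n = 3 each) and changed by -0.39 ± 0.09 (adjusted p = 2.81e-04). A weak peak inside Vcl, vinculin (chr14:20985417-20985918), held 145, 165 and 107 normalized counts with shMed1 #4, 96.6, 87.5 and 93.6 with shMed1 #2, and 162, 163 and 164 in NTC. All shMed1 #2 libraries were below both other groups, with -0.81 ± 0.15 (adjusted p = 1.90e-05) for shMed1 #2 and -0.25 ± 0.15 (adjusted p = 0.218) for shMed1 #4.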

How the data were processed

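ATAC-seq libraries of D2A1-d cells with shMed1 #4, shMed1 #2 or NTC (n = 3 each) were analysed from 1 table of 75936 peaks of 501 bp. Its values are a signal: reads per peak that the authors deposited after division by a size factor per library, which they named DESeq2 normalized counts. Trim Galore, BWA, MACS2 and featureCounts of Subread were used on mm10, per the submitters' processing notes. Tool versions, duplicate removal, any transposase offset and whether coordinates count from 0 or 1 are not stated there or in the deposited table. Within a tolerance of 0.01 read, 100% of a library's values were whole multiples of one step, and size factors (0.799 to 1.22) and reads per library were worked out from it. A count model was not run.

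Peaks with a mean under 10 were left out (6 of 75936). Log2 of the value plus 1 was fitted with limma 3.58.1 in R 4.3.3, 1 mean per group over all 9 libraries and an intensity trend, with two-sided tests and Benjamini-Hochberg adjustment over 75930 peaks or 15838 gene sums. The code was tested on simulated data. Log2 changes are given ± SE, on the log2 (value + 1) scale, which understates changes of weak peaks. Genes came from RefSeq (GRCm38.p6). A peak is gene-end within 1 kb of an annotated end, otherwise gene-body inside the gene, and intergenic outside it. Named peaks are all gene-end peaks, the strongest and the best-supported higher and lower peak of each gene, and every peak that passed between the hairpins, plus 3 partner peaks in each direction. Members and lists were chosen with earlier results of these data known. Alternatives covered scaling (equal totals, quantile, cyclic loess), filter, pseudocount, library weights, samples fitted, a replicate block, assignment of peaks to genes and leaving out each library, and voom weights were added after seeing the data.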

Additional observations from a re-analysis of the deposited data

Results flagged for a closer look

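The hairpins differed by their own test (limma, shMed1 #4 minus shMed1 #2, adjusted p under 0.05) at 9 of the 62 peaks and for 3 of the 8 gene sums, which is what brings these values here. That is 14.5% of the 62 peaks, beside 21.5% of all peaks, while 24.5% of all gene sums passed. Among PINCH peaks, log2 differences at Lims1 were 0.69 at chr10:58336088-58336589, 0.38 at chr10:58383308-58383809 and 0.16 at chr10:58322853-58323354, all higher with shMed1 #4. Lims2 had -0.52 at chr18:31933354-31933855, -0.49 at chr18:31935366-31935867 and -0.40 at chr18:31924159-31924660, all lower with shMed1 #4. Among parvin peaks the differences were 0.22 and -0.18 at chr7:112502880-112503381 and chr7:112458384-112458885 in Parva, and -0.42 at chr15:84295130-84295631 in Parvb. Gene sums differed by 0.12 for Lims1, -0.39 for Lims2 and -0.09 for Parvb. Each hairpin is 3 libraries.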

How the results depend on the processing

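Of 248 log2 changes of the 62 peaks (4 comparisons each), 87 passed, 48 of them under every alternative run, 39 were lost under at least 1, 28 others were gained under at least 1 and 0 changed sign while called. Of 32 gene-sum changes, 20 passed, 8 under every alternative, 12 were lost, 4 gained and 6 reversed. Of 32 other named changes, 21 passed, 16 under every alternative, 5 were lost and 5 gained. The cause of these shifts was not tested.

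Equal totals gave 12 higher peaks for shMed1 #2, 9 higher for shMed1 #4 and 3 lower for shMed1 #4 against shMed1 #2; 3 higher and 2 lower gene sums for the mean of both hairpins; 5 lower gene-body, 0 higher intergenic and 1 lower strong peak (mean at least 500); and 30, 48 and 46 lower partner peaks for shMed1 #4, shMed1 #2 and the mean. Quantile scaling and cyclic loess each gave 1 higher gene sum for shMed1 #4, 2 higher for the mean, 0 lower gene-end peaks, 2 higher intergenic peaks and 1 lower strong peak, and loess 7 higher strong peaks. Array quality weights gave 2 higher intergenic peaks. A 10 kb limit left 2, 6 and 5 lower peaks for shMed1 #4, shMed1 #2 and the mean, and 0 lower gene sums for shMed1 #4. Assignment to the nearest gene end gave 1 lower gene sum for shMed1 #2 and 3 lower peaks for shMed1 #4 against shMed1 #2. In that last comparison 1 gene sum was lower under equal totals, quantile, loess, the replicate block and the 10 kb limit.

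Signs turned for the Ilk sum under nearest gene end (0.17 for shMed1 #4, 0.18 for shMed1 #2 and 0.17 for the mean), which takes in the peak on its start. They turned for Lims1 under quantile (-0.10 for shMed1 #2, -0.03 for the mean) and loess (-0.09 and -0.02), and for Parva with shMed1 #2 under loess (-0.01).

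Leaving out 1 library at a time gave 9 to 16 higher and 4 to 6 lower peaks for shMed1 #4, 12 to 21 and 4 to 10 for shMed1 #2, 16 to 21 and 5 to 9 for the mean, and 3 to 7 and 3 to 5 for shMed1 #4 against shMed1 #2. Gene sums ranged over 3 to 5 higher and 1 lower, 3 to 4 and 1 to 2, 4 to 5 and 1 to 2, and 1 to 2 and 1 to 2 in the same order. For the mean, gene-end peaks were 0 higher and 0 to 1 lower, gene-body 15 to 19 and 1 to 3, intergenic 0 to 2 and 4 to 5, and strong peaks 9 to 11 and 0. Partner peaks ranged over 64 to 80 and 8 to 18 for shMed1 #4, 73 to 90 and 17 to 29 for shMed1 #2, 71 to 90 and 17 to 28 for the mean, and 27 to 40 and 25 to 39 between the hairpins.

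Same-numbered libraries of different groups deviated together no more than others (r of -0.084 to 0.033 over 9 pairs, against -0.036 to 0.076 over 18 pairs with different numbers), so no pairing by number was seen. These values cannot tell whether same-numbered libraries were made together. With the replicate block, 16 peaks were higher and 6 lower for shMed1 #4, 18 and 10 for shMed1 #2, 18 and 9 for the mean, and 3 and 3 for shMed1 #4 against shMed1 #2. A fit of only the groups compared cannot be made for the mean of both hairpins, and voom, added after seeing the data, was run on peaks only. Weak peaks are limited by their reads.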
